A study of Homo sapiens with 9 samples.

Results

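The genes followed here are 10 genes of the canonical Wnt pathway, CTNNB1, TCF7, LEF1, LGR5, ZNRF3, RNF43, AXIN2, NKD1, DKK1 and SP5, taken by gene symbol from a list drawn up with earlier results of these data known, among 60683 genes counted by RNA-seq in Hep3B cells. Hep3B is a human liver cancer line. Cells were exposed for 24 hours to vehicle (DMSO) at 20% O2, to vehicle at 1% O2, or to 32-134D, an inhibitor of the hypoxia-inducible factors (HIFs), at 1% O2. Each group had 3 biological replicates grown in 6-well plates, so the 9 libraries share a cell line and differ in oxygen and compound. The labels give no dose of 32-134D, and no library combined the compound with 20% O2, so effects of the compound outside hypoxia cannot be told apart from effects on the hypoxic response.

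In the absence of Wnt, a destruction complex built on AXIN and APC marks beta-catenin, the product of CTNNB1, for degradation. When Wnt binds a Frizzled receptor with its LRP co-receptor, beta-catenin is spared, enters the nucleus and activates genes bound by the TCF/LEF factors, among them TCF7 and LEF1. Many of these target genes encode brakes on the pathway itself. AXIN2 is a scaffold of the destruction complex, NKD1 binds Dishevelled, DKK1 is a secreted protein that blocks the LRP co-receptors, RNF43 and ZNRF3 are membrane ubiquitin ligases that clear Frizzled from the cell surface, and SP5 is a nuclear repressor. LGR5 is a receptor for R-spondins, which hold RNF43 and ZNRF3 in check. In the liver the pathway sets the gene program of hepatocytes near the central vein, and its activation is common in hepatocellular carcinoma. CTNNB1 is the transducer of the signal rather than a usual target of it.

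Hypoxia lowered LGR5, DKK1, NKD1, RNF43 and TCF7 in vehicle-treated cells, by 9.72-fold for LGR5 and 1.58-fold for TCF7, the ends of the range. LEF1 rose by 2.39-fold, while AXIN2, SP5 and CTNNB1 were not called, and ZNRF3 was lower by less than the fold change threshold. Calls rest on the edgeR quasi-likelihood test across all genes and needed both a false discovery rate (FDR, Benjamini-Hochberg) below 0.05 and a difference of more than 1.5-fold. By this rule 5 of the 10 genes were lower at 1% O2, against 20.3% of the 22672 genes tested, and 1 was higher, against 19.5%. With 32-134D at 1% O2, LGR5, NKD1, DKK1 and RNF43 were higher than with vehicle at 1% O2. That was 4 of the 10 genes, against 16.2% of all genes, and 0 of the 10 were lower, against 13.7%. DESeq2 also called TCF7, which made 5 of 10. The median log2 fold change of the 10 genes was -0.55 in hypoxia and 0.47 with 32-134D, beside 0.00 and -0.01 over all genes tested. At an unadjusted p below 0.05, or with DESeq2, the count of lower genes was also 0. All 10 genes passed the filter on low counts, a sum of at least 10 over the 9 libraries.

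Short promoter sequences are shown for 3 of the genes because the windows differ in the letters they hold while the genes differ in their response: DKK1, which fell in hypoxia, SP5, which was not called, and RNF43, which fell. The sequences are from a set of RefSeq promoters on GRCh38.p14. The set used here had an entry for 6 of the 10 genes (CTNNB1, TCF7, LEF1, DKK1, RNF43 and SP5), with 8 windows in all. It held none for AXIN2, LGR5, NKD1 and ZNRF3, whose promoters were therefore not searched. Each sequence shown is the 250 bases before the annotated start, read 5′ to 3′ on the strand of the gene. Capitals mark matches, on either strand, to the TCF/LEF core (CTTTG followed by AA, AT, TA or TT) or to the HIF core (ACGTG or GCGTG). The motifs of the pair do not overlap each other in these windows.
DKK1, plus strand, chr10:52314031-52314280: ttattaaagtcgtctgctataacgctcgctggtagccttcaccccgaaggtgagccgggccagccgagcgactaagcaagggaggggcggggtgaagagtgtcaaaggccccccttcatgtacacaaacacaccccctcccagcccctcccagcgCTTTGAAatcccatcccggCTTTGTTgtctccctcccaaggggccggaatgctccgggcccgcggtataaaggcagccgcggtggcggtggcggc
SP5, plus strand, chr2:170715087-170715336: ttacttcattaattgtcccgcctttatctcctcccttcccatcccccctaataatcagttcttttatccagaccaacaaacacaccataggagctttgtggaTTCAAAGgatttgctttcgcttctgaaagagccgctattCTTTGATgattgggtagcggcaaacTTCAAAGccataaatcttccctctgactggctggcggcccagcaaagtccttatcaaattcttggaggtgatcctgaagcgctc
RNF43, minus strand, chr17:58417535-58417784: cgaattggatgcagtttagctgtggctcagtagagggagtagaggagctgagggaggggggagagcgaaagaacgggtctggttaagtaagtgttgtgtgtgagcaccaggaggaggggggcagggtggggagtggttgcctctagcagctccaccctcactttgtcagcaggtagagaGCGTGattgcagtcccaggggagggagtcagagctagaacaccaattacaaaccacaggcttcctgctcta
The DKK1 window held 2 matches to the TCF/LEF core, which begin 95 and 76 bases before the start, and the SP5 window held 3, which begin 148, 109 and 84 bases before it. RNF43 held 1 match to the HIF core, which begins 71 bases before its start. In windows of 300 bases, which add 50 bases after the start, 3 of the 8 (1 of TCF7, DKK1 and SP5) held a TCF/LEF core, against 13.8% of 35116 promoters, and 1 of the 8 held a HIF core, against 48.4%. The other windows of TCF7 and RNF43 held no match to either core. These are matches of letters and say nothing about binding.

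Total counts per library ran from 6013980 in replicate 2 of vehicle at 20% O2 to 40549699 in replicate 1 of vehicle at 1% O2. All 9 liver markers checked (ALB, AFP, APOA1, APOB, TTR, SERPINA1, FGB, TF and HNF4A) were above 1 CPM in every library, where CPM, the usual depth-scaled count of RNA-seq, was taken after TMM scaling of the library totals. Among 9 markers of immune, endothelial and fibroblast cells, 3 (LYZ, COL1A1 and PDGFRB) were above 1 CPM in every library, and CD3E was at 0. Their summed level was 60.1 to 64.1 CPM in vehicle at 20% O2, 21.7 to 24.6 CPM in vehicle at 1% O2 and 43.8 to 50.3 CPM with 32-134D, and its part in the results was not tested. Replicate 3 of 32-134D stood apart, its chi-square, divided by the degrees of freedom, being 36.4 and 32.5 against replicates 1 and 2, which gave 2.0 against each other. The counts of calls above were the same without this library and the smallest one, an alternative chosen after seeing the data. In bulk RNA, fewer cells with a transcript and less transcript per cell cannot be told apart. Scaling by total library size in place of TMM moved all genes by -0.21 on the log2 scale in hypoxia and by 0.19 with 32-134D against vehicle at 1% O2. It lowered the share of calls that were higher from 49.0% to 34.5% in hypoxia and raised it from 54.2% to 72.0% with 32-134D.

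**Figure D1:**
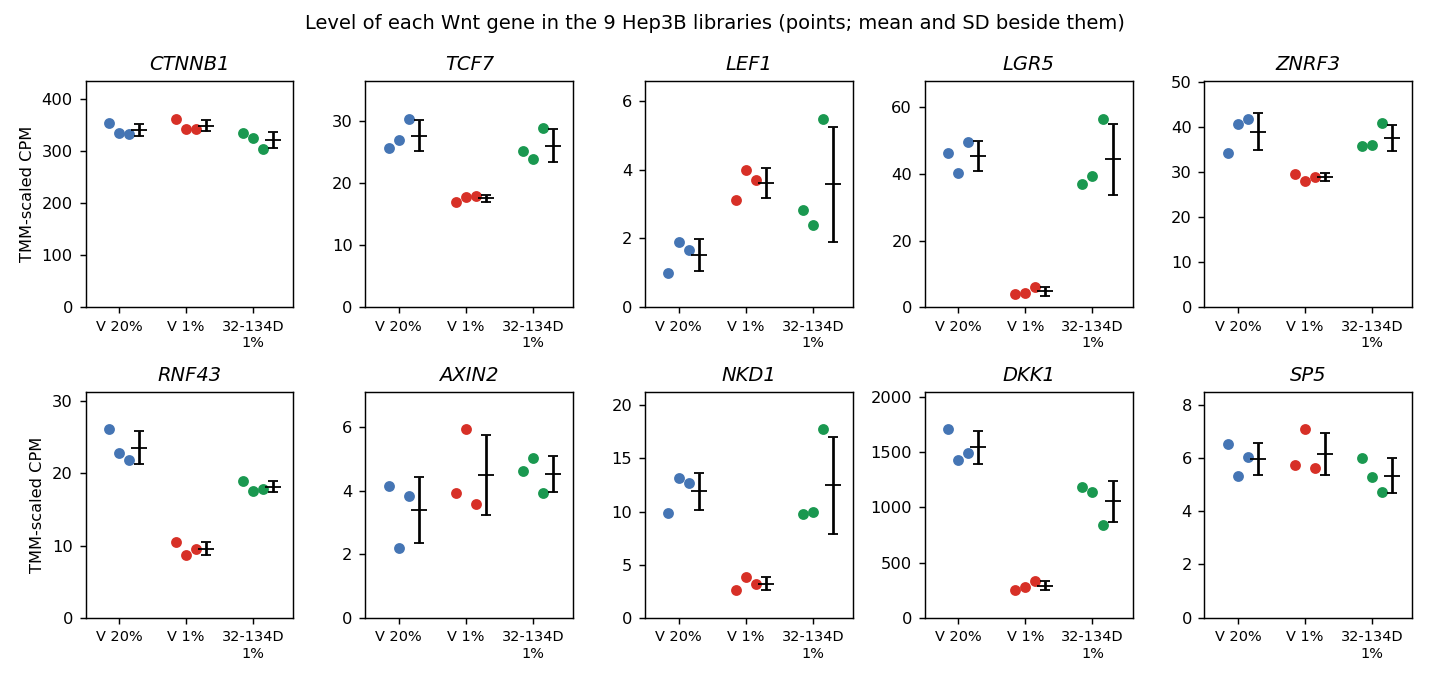
Level of each of the 10 genes in TMM-scaled CPM (linear axes from 0) in vehicle (V) at 20% O2, vehicle at 1% O2 and 32-134D at 1% O2. Points are libraries in the order of their replicate numbers, and the bar beside them is the mean with its SD (n = 3). LGR5, DKK1, NKD1 and RNF43 have their 3 lowest points in vehicle at 1% O2, whereas AXIN2, SP5 and CTNNB1 overlap between oxygen levels.

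Relative to exon length, DKK1 was the most abundant of the 10 transcripts in each group. Its level in reads per kilobase of annotated exon, with TMM-scaled CPM as numerator (RPKM), was 647 to 774 in the 3 libraries of vehicle at 20% O2, 131 ± 18.4 (SD, n = 3) in vehicle at 1% O2 and 479 ± 84.2 with 32-134D. CTNNB1 followed at 28.5 ± 0.949, 29.2 ± 0.955 and 26.9 ± 1.32 RPKM. In vehicle at 20% O2 the order then ran LGR5 (8.64 ± 0.883 RPKM), ZNRF3 (5.60 ± 0.587), RNF43 (3.14 ± 0.300), SP5 (2.90 ± 0.290), TCF7 (2.74 ± 0.246), NKD1 (0.684 ± 0.101), AXIN2 (0.650 ± 0.201) and LEF1 (0.284 ± 0.0857). The libraries of neighbours overlapped for RNF43 with SP5, SP5 with TCF7 and NKD1 with AXIN2, so the order within these pairs is not resolved. In vehicle at 1% O2, LGR5 had dropped from place 3 to place 7 at 0.897 ± 0.239 RPKM, where its libraries overlapped those of RNF43 (1.28 ± 0.117) and AXIN2 (0.860 ± 0.242). NKD1 was last at 0.184 ± 0.0351 RPKM. With 32-134D, LGR5 was back in place 3 at 8.46 ± 2.03 RPKM.

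CTNNB1 (ENSG00000168036, chromosome 3, 41194741 to 41260096 in GRCh38) was steady across the groups. Its level was 353, 334 and 333 CPM in replicates 1, 2 and 3 of vehicle at 20% O2, 362, 341 and 343 CPM in vehicle at 1% O2, and 334, 325 and 303 CPM with 32-134D. The oxygen groups overlapped, and all 3 libraries with 32-134D lay below those of vehicle at 1% O2. The log2 fold change was 0.04 in hypoxia (95% interval -0.11 to 0.18, FDR 0.676), a direction that turned to -0.18 with total library size, and -0.12 with 32-134D (-0.26 to 0.02, FDR 0.157), which turned to 0.07. The counts bear on the transcript only, as beta-catenin is controlled mainly through the stability of its protein.

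TCF7 and LEF1, which encode related DNA-binding partners of beta-catenin, moved in opposite directions in hypoxia. TCF7 (ENSG00000081059, chromosome 5, 134114711 to 134151865) had 25.5, 26.9 and 30.3 CPM in vehicle at 20% O2, 16.9, 17.7 and 17.9 CPM in vehicle at 1% O2, and 25.2, 23.9 and 28.9 CPM with 32-134D. Its libraries in vehicle at 1% O2 were below all others. TCF7 fell in hypoxia by 0.66 in log2 units (standard error 0.10, FDR 6e-05), and the call was lost without replicate 3 of vehicle at 20% O2, when it was -0.58. With 32-134D against vehicle at 1% O2 it was 0.57 (standard error 0.10, FDR 0.000266), a fold change of 1.48 that fell just under the threshold. TCF7 was called higher in 9 of 17 alternatives, among them DESeq2 (0.62), RLE scaling (0.62) and total library size (0.75), so this call depends on the processing. TCF7 exons share 210 bases with SKP1 on the opposite strand, and the strand setting of the counting was not stated.

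LEF1 (ENSG00000138795, chromosome 4, 108047545 to 108168956) was scarce, with 682 counts in all libraries together. It had 1.00, 1.88 and 1.67 CPM in vehicle at 20% O2, 3.13, 4.01 and 3.70 CPM in vehicle at 1% O2, and 2.84, 2.39 and 5.49 CPM with 32-134D. Every library at 1% O2, with or without the compound, was above those at 20% O2. LEF1 rose in hypoxia, with a log2 difference of 1.26 (standard error 0.32, FDR 0.00395). With 32-134D against vehicle at 1% O2 the log2 fold change was -0.03 (95% interval -0.61 to 0.54, FDR 0.933), and it was -0.44 (FDR 0.0514) without replicate 3 of 32-134D, the highest LEF1 library. Against vehicle at 20% O2, LEF1 was 2.33-fold higher with 32-134D (log2 fold change 1.22, standard error 0.32, FDR 0.0266). That call was lost when any one of the libraries of vehicle at 20% O2 was left out, with FDRs of 0.0978, 0.0587 and 0.0848 without replicates 1, 2 and 3, and in a fit of only these groups (FDR 0.0782). The antisense gene LEF1-AS1 shares 279 exon bases with LEF1 and had 30 counts in all.

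LGR5 (ENSG00000139292, chromosome 12, 71439770 to 71586310), the R-spondin receptor known as a stem cell marker, fell most of the 10 genes in hypoxia. Its level was 46.3, 40.4 and 49.5 CPM in vehicle at 20% O2 and 3.87, 4.10 and 6.15 CPM in vehicle at 1% O2. With 32-134D it was 37.1, 39.5 and 56.6 CPM. No library of vehicle at 1% O2 came near those of the other groups, and those of vehicle at 20% O2 and 32-134D overlapped. LGR5 thus fell by 3.28 in log2 units in hypoxia (standard error 0.19, FDR 2.63e-09) and was higher by 3.23 with 32-134D than with vehicle at 1% O2 (standard error 0.19, FDR 8.57e-09). Without replicate 3 of 32-134D, the highest library, the latter was 3.03. Against vehicle at 20% O2 the log2 fold change with 32-134D was -0.05, with a 95% interval from -0.40 to 0.30.

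Of the ligases RNF43 and ZNRF3, against which LGR5 acts, RNF43 fell and ZNRF3 was not called. RNF43 (ENSG00000108375, chromosome 17, 58352500 to 58417595) had 26.1, 22.8 and 21.8 CPM in vehicle at 20% O2, 10.5, 8.72 and 9.54 CPM in vehicle at 1% O2, and 19, 17.6 and 17.8 CPM with 32-134D. The 3 groups did not overlap, with the compound in between. In log2 units RNF43 fell by 1.29 in hypoxia (standard error 0.11, FDR 1.44e-07) and was higher by 0.92 with 32-134D (standard error 0.11, FDR 6.42e-06). Against vehicle at 20% O2 the log2 difference was -0.37 with 32-134D (FDR 0.0384), a 1.30-fold difference that was not called. RNF43 exons share 4326 bases with AC004687.2 and 143 with SUPT4H1 on the same strand, and 1521 with TSPOAP1-AS1 on the opposite strand. These had 56, 3293 and 123 counts in all, against 3664 for RNF43, and reads in the shared bases could be split or dropped.

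ZNRF3 (ENSG00000183579, chromosome 22, 28883592 to 29057487) had 34.4, 40.8 and 41.9 CPM in vehicle at 20% O2, 29.7, 28.1 and 28.9 CPM in vehicle at 1% O2, and 35.9, 36.1 and 41.0 CPM with 32-134D. Vehicle at 1% O2 was again the lowest group without overlap. In log2 units ZNRF3 differed by -0.43 in hypoxia (standard error 0.09, FDR 0.00121) and by 0.38 with 32-134D against vehicle at 1% O2 (standard error 0.09, FDR 0.00323). Both are under the fold change threshold of 1.5, at 1.35-fold and 1.30-fold. With total library size the hypoxic difference was -0.65 and was called.

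AXIN2 (ENSG00000168646, chromosome 17, 65528563 to 65561647), often read as a general reporter of Wnt signaling, showed no difference beyond its spread. Its level was 4.16, 2.20 and 3.83 CPM in vehicle at 20% O2, 3.95, 5.94 and 3.60 CPM in vehicle at 1% O2, and 4.62, 5.05 and 3.93 CPM with 32-134D. The groups overlapped in each comparison. The lowest value came from the smallest library and rests on 14 counts, of 976 for the gene in all. The log2 fold change was 0.31 in hypoxia (95% interval -0.19 to 0.80, FDR 0.285) and 0.04 with 32-134D against vehicle at 1% O2 (-0.42 to 0.49, FDR 0.910). The hypoxic interval does not reach the decreases seen for LGR5, DKK1, NKD1, RNF43 and TCF7, but it includes increases of over 1.5-fold. AXIN2 exons share 1316 bases with AC004805.1 on the same strand. That gene had 0 counts, and reads in the shared bases could be dropped, which would lower the AXIN2 level.

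NKD1 (ENSG00000140807, chromosome 16, 50548330 to 50649249) had 9.90, 13.2 and 12.7 CPM in vehicle at 20% O2 and 2.6, 3.82 and 3.18 CPM in vehicle at 1% O2. With 32-134D it had 9.76, 9.93 and 17.7 CPM, and replicate 3 was the highest of the 9 libraries. Vehicle at 1% O2 did not overlap the other groups. NKD1 fell by 1.91 in log2 units in hypoxia (standard error 0.24, FDR 7.01e-06) and was higher by 1.97 with 32-134D than with vehicle at 1% O2 (standard error 0.23, FDR 6.04e-06), or 1.66 without replicate 3 of 32-134D. Against vehicle at 20% O2 it was 0.06 (95% interval -0.40 to 0.53).

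DKK1 (ENSG00000107984, chromosome 10, 52314296 to 52318042) had 201339 counts in all, the most of the 10 genes. Its level was 1707, 1427 and 1495 CPM in vehicle at 20% O2, 255, 277 and 334 CPM in vehicle at 1% O2, and 1183, 1144 and 843 CPM with 32-134D. The 3 groups did not overlap, and the compound libraries lay between the vehicle groups. DKK1 fell in hypoxia by 2.42 in log2 units, or 5.35-fold (standard error 0.13, FDR 1.45e-09), and was 3.66-fold higher with 32-134D than with vehicle at 1% O2 (log2 fold change 1.87, standard error 0.13, FDR 4.23e-08). Against vehicle at 20% O2 its log2 difference was -0.55 with 32-134D (standard error 0.13, FDR 0.0121), a 1.46-fold difference under the threshold. That difference was called without replicate 2 of vehicle at 20% O2 (-0.60) and without replicate 1 or 2 of 32-134D (-0.63 and -0.61). The antisense PRKG1-AS1 shares 212 exon bases with DKK1 and had 383 counts.

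SP5 (ENSG00000204335, chromosome 2, 170715351 to 170718078), a direct target in many cell types, resembled AXIN2 in showing no called difference. It had 6.53, 5.34 and 6.05 CPM in vehicle at 20% O2, 5.75, 7.07 and 5.64 CPM in vehicle at 1% O2, and 6.01, 5.29 and 4.71 CPM with 32-134D. The groups overlapped in each comparison. The log2 fold change was 0.02 in hypoxia (95% interval -0.32 to 0.35, FDR 0.935), which turned to -0.19 with total library size, and -0.19 with 32-134D against vehicle at 1% O2 (-0.51 to 0.13, FDR 0.317). Of the 10 genes, 1 was higher (LEF1) and 0 were lower with 32-134D than with vehicle at 20% O2, against 3.0% and 0.516% of all genes. DKK1 and RNF43 were lower at an FDR below 0.05 but not by 1.5-fold, and DESeq2 also called 0 lower.

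**Figure D2:**
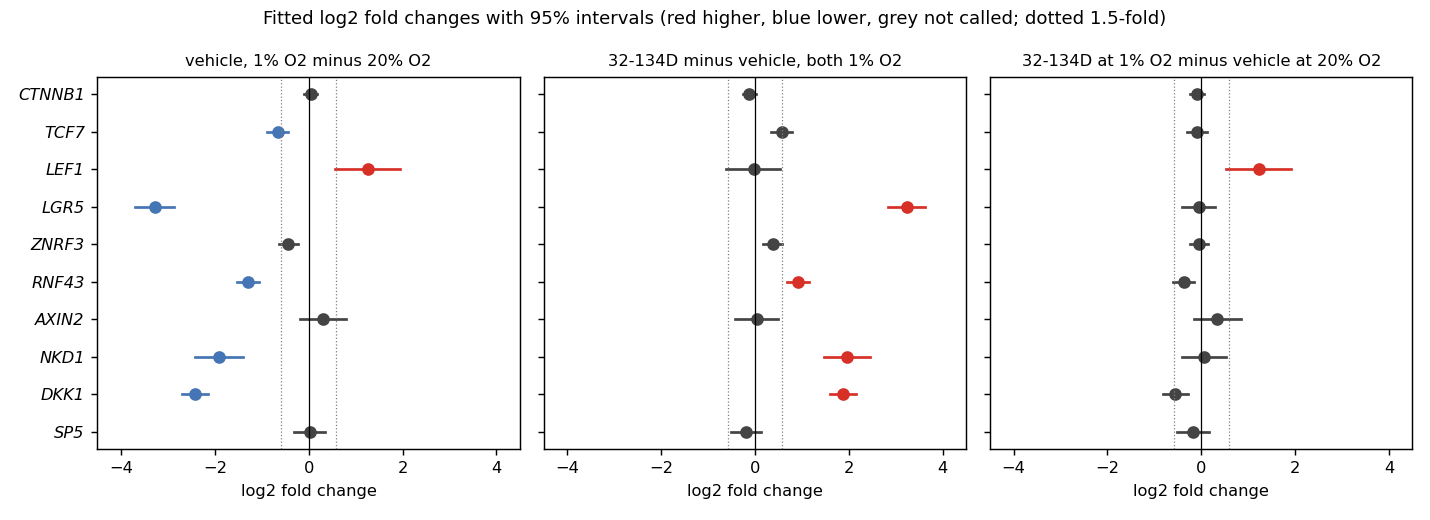
Fitted log2 fold changes of the 10 genes (points) with 95% intervals (lines) from edgeR for vehicle at 1% against 20% O2 (left), 32-134D against vehicle at 1% O2 (middle) and 32-134D at 1% O2 against vehicle at 20% O2 (right). Red genes were called higher, blue lower and grey not called, and dotted lines mark a fold change of 1.5. In the left panel 5 genes are blue and LEF1 is red, in the middle 4 are red, and on the right LEF1 is called while DKK1 lies at -0.55. The comparisons share libraries in pairs, so the panels are not independent of each other.

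Ratios of counts within a library do not depend on the scaling between libraries, and gene length cancels between groups. These ratios were chosen after the values were seen and are given without a test. There were 11.1, 18.4 and 12.9 LGR5 counts per AXIN2 count in vehicle at 20% O2, 0.980, 0.690 and 1.71 in vehicle at 1% O2, and 8.02, 7.82 and 14.4 with 32-134D. The corresponding DKK1 ratios to AXIN2 were 411, 649 and 390, then 64.6, 46.6 and 92.9, then 256, 227 and 214. Vehicle at 1% O2 was thus lowest in both, without overlap. The RNF43 count per ZNRF3 count was 0.760, 0.558 and 0.520 in vehicle at 20% O2, 0.352, 0.311 and 0.330 in vehicle at 1% O2, and 0.529, 0.487 and 0.435 with 32-134D. For TCF7 per LEF1 the ratios were 25.4, 14.2 and 18.1, then 5.41, 4.42 and 4.85, then 8.87, 9.99 and 5.27. The last of these, from replicate 3 of 32-134D, fell within the range of vehicle at 1% O2.

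**Figure D3:**
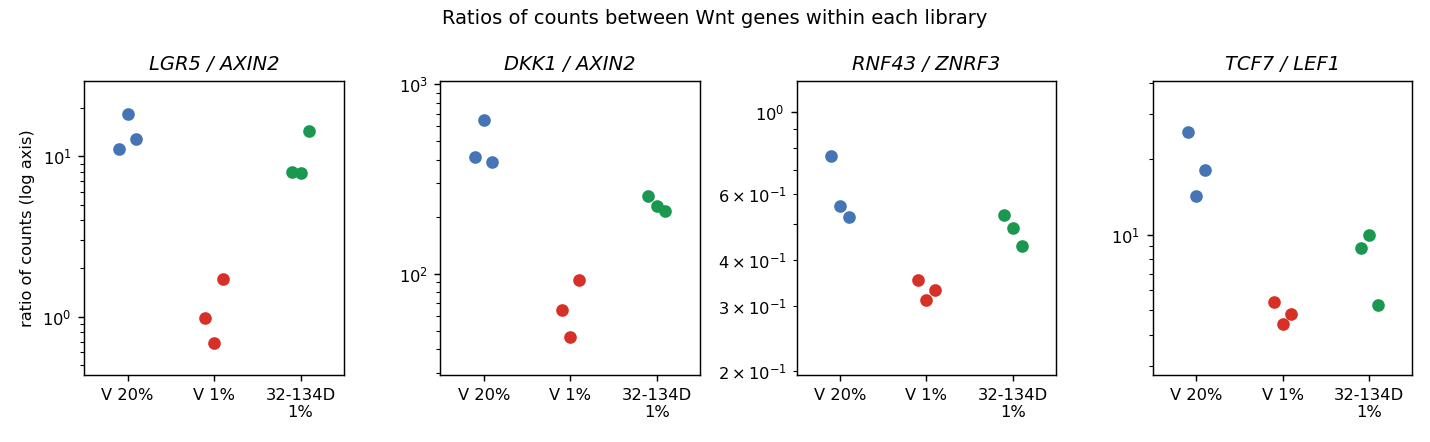
Ratios of counts between pairs of the 10 genes within each library, on log axes, for LGR5 per AXIN2, DKK1 per AXIN2, RNF43 per ZNRF3 and TCF7 per LEF1. Each point is a library of vehicle (V) at 20% O2, vehicle at 1% O2 or 32-134D at 1% O2. The LGR5 to AXIN2 ratio is 11.1 to 18.4 at 20% O2 and 0.690 to 1.71 in vehicle at 1% O2.

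Across the 9 libraries, log2 CPM values of LGR5, NKD1, TCF7, DKK1, RNF43 and ZNRF3 followed each other, with Pearson's r between 0.83 (DKK1 with ZNRF3) and 0.98 (DKK1 with RNF43). AXIN2 gave r from -0.46 with ZNRF3 to 0.46 with SP5. These correlations are over libraries of 3 groups that share their treatment and are descriptions only. Among 13910 genes with a mean of at least 1 CPM, those most like AXIN2 were PCBP1-AS1, AC011498.6 and C7orf25 (r = 0.955, 0.950 and 0.948, n = 9). They are the top of 13910 correlations over 9 libraries, and whether they exceed what such a search gives by chance was not tested. The means in vehicle at 20% O2, vehicle at 1% O2 and 32-134D were 22.7, 23.4 and 23.7 CPM for PCBP1-AS1 and 0.944, 1.50 and 1.58 CPM for C7orf25.

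To place these genes in the pathway, 105 other Wnt genes were grouped by role, of which 87 passed the filter. In hypoxia 24 of the 87 were higher (27.6%) and 16 lower (18.4%), against 19.5% and 20.3% of all genes, with a median log2 fold change of 0.02, against 0.00 over all genes. With 32-134D against vehicle at 1% O2, 18 were higher (20.7%) and 16 lower (18.4%), against 16.2% and 13.7% of all genes, with a median of -0.06, against -0.01 over all genes. When each library had to hold 10 or more counts of a gene, 10 of those still tested were higher in hypoxia. Scarce genes fail this filter, but it also shifted the scaling, as CTNNB1 in hypoxia went from 0.04 to -0.07. How far each lowered the count was not tested.

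Several ligands, most of them scarce, were higher in hypoxia. Of 15 Wnt ligands and release factors tested, 7 were higher (46.7%, against 19.5% of all genes) and 1 was lower (6.67%, against 20.3%), with a median log2 fold change of 0.88. With 32-134D 1 was higher (6.67%, against 16.2%) and 4 were lower (26.7%, against 13.7%). The 3 with the largest change among those above 1 CPM were WNT9A, WNT11 and WNT10B. WNT9A rose from 0.4996 ± 0.157 to 3.005 ± 0.572 CPM (SD, n = 3; log2 fold change 2.46, FDR 4.37e-05) and was 0.759 ± 0.393 CPM with 32-134D (log2 fold change -1.94, FDR 0.000114). WNT11, mostly linked to signaling without beta-catenin, rose by 1.95 (FDR 0.00261), a call lost without replicate 3 of vehicle at 20% O2 (1.45, FDR 0.0515). With 32-134D its log2 fold change was -0.40 (FDR 0.38), and it was called at -0.87 without replicate 3 of 32-134D. WNT10B rose by 1.70 (FDR 0.000351) and fell by 1.05 with 32-134D (FDR 0.00412). All 3 stayed below 4 CPM in every library, with 3 or 4 counts in replicate 2 of vehicle at 20% O2. WNT1 and WNT5B, also among the 7, had 0 to 1 and 0 to 4 counts in vehicle at 20% O2. The other ligands called higher were WNT3 (0.64, FDR 0.00168) and WNT7B (1.49, FDR 3.28e-05), with at least 64 and 12 counts in each library. The median of 0.88 is the value of WNT4, which had 38 counts in all (FDR 0.298, not called). The ligand count thus rests largely on scarce genes.

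Of 15 receptors and co-receptors tested, 4 were higher (26.7%, against 19.5% of all genes) and 3 lower (20%, against 20.3%) in hypoxia, shares near those of all genes. With 32-134D 5 were higher (33.3%, against 16.2%) and 3 lower (20%, against 13.7%). The Frizzled receptor FZD7 rose from 2.40 ± 0.592 to 12.8 ± 0.594 CPM (SD, n = 3; log2 fold change 2.32, FDR 1.48e-08) and was 4.72 ± 0.362 CPM with 32-134D (log2 fold change -1.43, FDR 9.39e-07). FZD3 rose by 2.04 (FDR 0.000637), from a mean of 0.579 to 2.16 CPM. It fell by 1.21 with 32-134D (FDR 0.00747), a call lost without replicate 1 of vehicle at 1% O2 (FDR 0.0749). ROR1, a receptor for WNT5A, fell by 2.29 in hypoxia (FDR 6.16e-05) and was higher by 2.14 with 32-134D (FDR 9.88e-05). ROR1 was scarce, with mean levels of 1.08, 0.221 and 0.989 CPM in vehicle at 20% O2, vehicle at 1% O2 and 32-134D. It had 7, 5 and 7 counts in vehicle at 1% O2. The R-spondin genes RSPO1, RSPO2, RSPO3 and RSPO4, which encode the LGR5 ligands, did not pass the filter.

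Antagonists, the role of DKK1, were lower or not called in hypoxia. Of 11 secreted and surface antagonists tested, 0 were higher (against 19.5% of all genes) and 4 lower (36.4%, against 20.3%) in hypoxia, with a median log2 fold change of -0.45. With 32-134D 3 were higher (27.3%, against 16.2%) and 0 lower (against 13.7%). TRABD2A, a membrane protease that inactivates Wnt proteins, fell from 55.0 ± 1.78 to 12.1 ± 0.109 CPM (SD, n = 3; log2 fold change -2.18, FDR 1.17e-07) and was 39.9 ± 12.8 CPM with 32-134D (log2 fold change 1.72, FDR 1.96e-06). Its relative TRABD2B fell by 1.95 (FDR 4.65e-05) and SOSTDC1, a secreted binder of LRP co-receptors, fell by 1.64 (FDR 4.54e-05). With 32-134D they were higher by 1.23 (FDR 0.00258) and 1.15 (FDR 0.00104). The remaining antagonist called lower in hypoxia, SFRP5, was scarce. It had 33 counts in all, with 5, 4 and 8 in vehicle at 20% O2 and 1, 0 and 1 in vehicle at 1% O2. The 7 not called in hypoxia included NOTUM, with a log2 fold change of 0.02 (FDR 0.869).

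Of the 18 genes of Dishevelled and the destruction complex, 5 were higher (27.8%, against 19.5% of all genes) and 1 lower (5.56%, against 20.3%) in hypoxia, and 12 were not called. With 32-134D 1 was higher (5.56%, against 16.2%) and 2 were lower (11.1%, against 13.7%). AXIN1, the scaffold related to AXIN2, rose from 48.3 ± 1.11 to 87.1 ± 1.01 CPM (SD, n = 3; log2 fold change 0.85, FDR 1.06e-07). With 32-134D AXIN1 was 55.3 ± 2.72 CPM (log2 fold change -0.66, FDR 2.06e-06), a call lost with total library size at -0.47 and with at least 10 counts in every library at -0.56. GSK3A, a kinase of the complex, rose by 0.77 (FDR 4.22e-07) and by 0.55 with total library size, under the threshold. AMER1, a membrane partner of APC and AXIN, fell by 1.55 (FDR 2.06e-06) and was higher by 1.10 with 32-134D (FDR 7.16e-05).

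Among the 13 nuclear partners, 3 were higher (23.1%, against 19.5% of all genes) and 4 lower (30.8%, against 20.3%) in hypoxia, and 4 were higher (30.8%, against 16.2%) and 3 lower (23.1%, against 13.7%) with 32-134D. TCF7L2, the TCF factor most linked to metabolism in liver, fell from 33.1 ± 3.62 to 13.5 ± 1.48 CPM (SD, n = 3; log2 fold change -1.30, FDR 2.74e-07) and was 32.6 ± 3.43 CPM with 32-134D (log2 fold change 1.27, FDR 5.54e-07). HBP1, a repressor that can block TCF binding, rose by 2.05 (FDR 4.1e-11), and the co-repressor TLE3 rose by 1.55 (FDR 0.000118). They fell by 1.30 (FDR 6.24e-09) and 1.01 (FDR 0.00175) with 32-134D.

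Of 15 other reported Wnt targets, 5 were higher (33.3%, against 19.5% of all genes) and 3 lower (20%, against 20.3%) in hypoxia. With 32-134D 4 were higher and 4 lower (26.7% each, against 16.2% and 13.7%). EPHB3, an ephrin receptor, rose by 3.09 (FDR 1.51e-06), from a mean of 0.307 to 2.90 CPM. It had only 6, 1 and 11 counts in vehicle at 20% O2. RHBG, an ammonium transporter of pericentral hepatocytes, and the receptor gene TNFRSF19 fell by 1.99 (FDR 0.000242) and 1.89 (FDR 8.94e-07). OAT and GLUL, also genes of pericentral hepatocytes, were instead higher in hypoxia, by 1.68 (FDR 1.4e-07) and 0.34 (FDR 0.022, not called). MYC rose by 1.08 (FDR 4.63e-06) and CCND1, the cyclin D1 gene, fell by 1.71 (FDR 1.67e-09) in hypoxia. With 32-134D the log2 fold changes were -1.32 for EPHB3 (FDR 0.000375), 1.23 for RHBG (FDR 0.00951) and 1.39 for TNFRSF19 (FDR 2.55e-05). They were -0.38 for MYC (FDR 0.0208, not called) and 1.36 for CCND1 (FDR 3.97e-08), and -1.20 for OAT (FDR 3.65e-06) and -0.44 for GLUL (FDR 0.00542, not called). The RHBG value rests on replicates 1 and 2 of 32-134D, at 3.97 and 4.24 CPM. Replicate 3 was at 1.10 CPM, within the 1.08 to 1.46 CPM of vehicle at 1% O2. EPHB2, also among the 4 called higher with 32-134D (2.13, FDR 0.0486), had 6, 7 and 38 counts there. It had 8, 3 and 2 counts in vehicle at 1% O2, so its call rests largely on replicate 3 of 32-134D. The MYC value rests on replicate 3 of 32-134D, at 196 CPM beside 125 and 132 CPM in replicates 1 and 2, and was -0.61 and called lower without it.

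**Figure D4:**
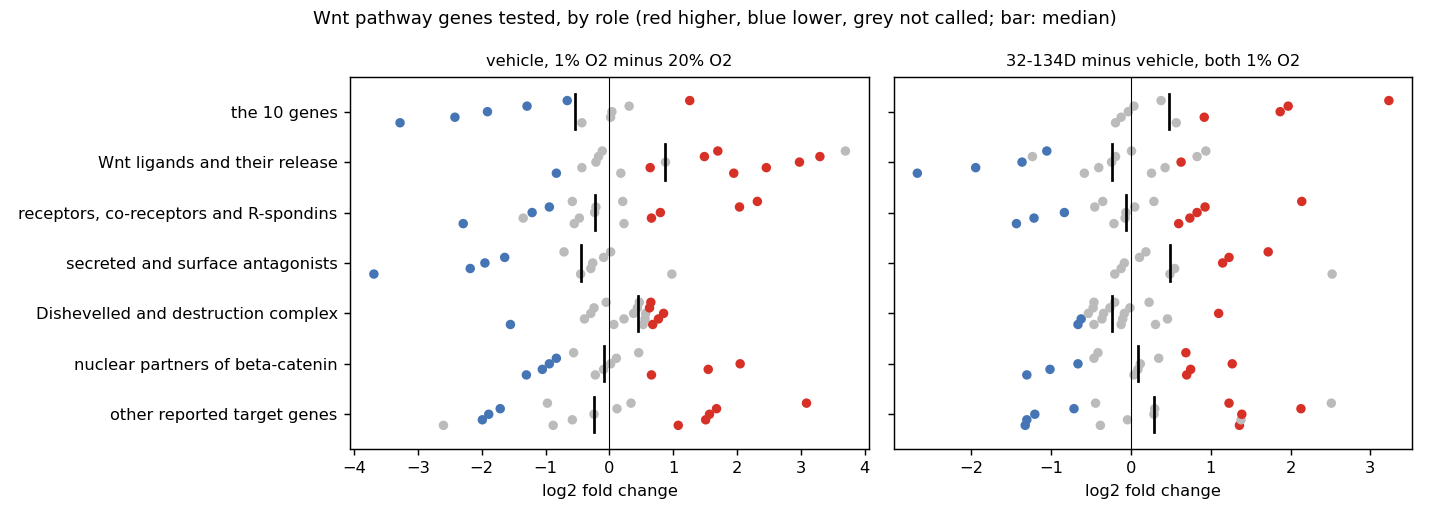
Fitted log2 fold changes of the 10 genes and of 87 other Wnt pathway genes, by role, for vehicle at 1% against 20% O2 (left) and 32-134D against vehicle at 1% O2 (right). Points are genes (red called higher, blue called lower, grey not called), spread vertically for clarity, and the bar is the median of the role. In hypoxia the median is 0.88 for ligands and -0.45 for antagonists.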

How the data were processed

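RNA from 9 Hep3B cultures, 3 in each group, was sequenced. The values deposited by the authors are raw counts for each Ensembl gene. Reads had been checked with FastQC, trimmed with Bbduk, aligned by STAR to GRCh38 and counted by featureCounts, and tool versions and the strand setting are not given in the sources used here. Column names, which also stand in the sample titles, tied each of the 9 columns to its sample. Total counts ran from 6013980 to 40549699, and with 3 replicates per group the precision of scarce genes is limited by the smallest library.

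Genes whose counts summed to at least 10 (22672 of 60683) were scaled with TMM and tested in 1 edgeR 4.0.16 quasi-likelihood fit of the 9 libraries (R 4.3.3), with Benjamini-Hochberg adjustment over all of them. CPM values are TMM-scaled, and the correlations used log2 CPM with a prior count of 2. Standard errors and 95% intervals come from that fit, whose common biological coefficient of variation was 10.5%. Calls needed an FDR below 0.05 and a fold change above 1.5, as in the methods of the study, which used DESeq2. DESeq2 1.42.0 was an alternative here. All 9 libraries counted as separate samples, being described as biological replicates. Chi-square over degrees of freedom between replicates of a group ran from 1.62 to 36.4, which by itself does not show that they were independent. Replicate 1 of vehicle gave 6.21 and 12 against the others at 20% O2, and 7.9 and 11.8 at 1% O2. Positions, exon lengths and overlaps are from GENCODE version 29 on GRCh38, an earlier release than the Ensembl annotation that was counted. The procedure was run on simulated counts with the same spread for every gene and no library standing apart. That run therefore does not measure its accuracy on these data. The 10 genes, the role lists and the motifs were chosen with earlier results of these data known. In each role, the 3 genes named had the largest hypoxic change among called genes with a mean of at least 1 CPM in the higher group. MYC and CCND1 are also named, as are WNT1, WNT4, WNT5B, SFRP5 and EPHB2 for their low counts, and OAT and GLUL beside RHBG. NOTUM is named as an antagonist that was not called. WNT3 and WNT7B are named as the other ligands called higher in hypoxia.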

Additional observations from a re-analysis of the deposited data

How the results depend on the processing

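Of the fold changes of the 10 genes, 492 comparisons with an alternative kept their side of the thresholds, 13 passed them newly, 5 no longer passed and 0 called values reversed. For the pathway genes named by size of hypoxic change, with MYC and CCND1, these numbers were 657, 4, 5 and 0. They cover hypoxia and 32-134D against vehicle at 1% O2. The fold changes of WNT1, WNT3, WNT4, WNT5B, WNT7B, SFRP5, NOTUM, EPHB2, TBX3, OAT and GLUL were not put through the alternatives. The alternatives were DESeq2, RLE scaling, total library size, at least 10 counts in every library, no filter beyond 1 count, only the groups compared, a replicate block, leaving out each library, and, chosen after seeing the data, leaving out replicate 2 of vehicle at 20% O2 with replicate 3 of 32-134D. Fold change thresholds of 2 and none were also tried for the counts.

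The number of the 10 genes higher with 32-134D than vehicle at 20% O2 was 0 in the fit of only these groups and 0 to 1 with a library left out. The number lower was 2 without a fold change threshold and 0 to 1 with a library left out. The other pathway genes higher in hypoxia were 15 with a fold change above 2 and 10 with at least 10 counts in every library. With 32-134D against vehicle at 1% O2, 10 were higher with a fold change above 2. The lower ones were 29 without a fold change threshold and 6 with at least 10 counts in every library. The share of all genes called was not computed at these settings, and the filter also lowers the number of genes tested. These counts therefore do not show whether the pathway genes differed from all genes. Where the construction of an alternative does not give the cause, the cause was not tested.

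Replicate numbers did not pair the samples, as deviations of same-numbered libraries from their group means correlated between -0.03 and 0.01 and 1 of 9 comparisons found the best match at the same number. With a replicate block, 5 of the 10 genes were lower and 1 higher in hypoxia, and 4 were higher with 32-134D, as without it.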

Other observations

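Against vehicle at 20% O2, 6 of the 87 other Wnt pathway genes were higher with 32-134D at 1% O2 (6.9%, against 3.0% of all genes), and 0 were lower (against 0.516%). In this comparison the 87 genes were not checked under the alternatives. The 6 were WNT7B, FZD7, HBP1, MYC, EPHB3 and TBX3, and WNT7B and TBX3 are named here because they complete this count. TBX3, a transcription factor and Wnt target in liver, had 16.1 ± 0.618 CPM in vehicle at 20% O2, 47.7 ± 3.15 CPM in vehicle at 1% O2 and 29.2 ± 5.75 CPM with 32-134D (SD, n = 3). Its log2 fold change against vehicle at 20% O2 was 0.85 with 32-134D (FDR 0.00053 from edgeR). WNT7B, a ligand, had 1.54 ± 0.333, 4.20 ± 0.544 and 2.82 ± 0.428 CPM in the same groups, and 32-134D differed from vehicle at 20% O2 by 0.91 in log2 units (FDR 0.0176, edgeR). EPHB3 was higher by 1.77 (FDR 0.00591 from edgeR), at a mean of 1.15 CPM beside 0.307 CPM in vehicle at 20% O2.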
